A study of Mus musculus with 4 samples.

Results

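Transcript levels in mouse caecum were examined for 10 genes of the responses to unfolded protein in the endoplasmic reticulum (ER) and to amino acid shortage: Hspa5, Xbp1, Atf4, Ddit3, Herpud1, Sdf2l1, Creld2, Dnajb9, Trib3 and Asns. They were chosen by name as known members of these responses, with earlier results of these data known. All 10 of the 10 had a probe set annotated with their symbol alone, 1 each, among 22180 genes measured in this way. The study asked how prebiotics act in mice lacking apolipoprotein E (apoE), the ligand by which lipoprotein remnants are cleared. All mice were C57Bl/6, 21 weeks old and fed a diet short of n-3 polyunsaturated fat, and each of the 4 groups was a single Affymetrix array of caecal RNA pooled from 6 mice. The groups were apoE knockout (KO) mice given the prebiotic Orafti P95 at 250 mg per mouse per day for their last 15 days, KO mice without prebiotics, wild-type (WT) mice titled as given the same prebiotic, and WT mice titled as without it. For the WT arrays the description field gives the opposite diet to the title, source name and treatment, so their differences are given by array as titled. Mice had been picked for RNA quality before pooling. The spread between mice cannot be seen, and p-values rest on 4 pooled samples only. In the genotype test the 2 arrays of a genotype differ in diet, so diet differences count as spread. In the prebiotic test a gene's own spread is only the gap between the prebiotic differences of the 2 genotypes.

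Secretory cells fold their proteins in the ER with the help of Hspa5 (BiP), the main ER chaperone. When unfolded protein accumulates, the sensors Ern1 (IRE1), Atf6 and Eif2ak3 (PERK) release it. Ern1 splices the messenger RNA of the transcription factor Xbp1, Atf6 is cut to a transcription factor, and Eif2ak3 phosphorylates a translation factor so that Atf4 is translated. Atf4 is also translated on amino acid shortage, through Eif2ak4 (GCN2), and so joins ER stress and amino acid stress in the integrated stress response (ISR). In the gut this system is known for its part in goblet and Paneth cells, which secrete mucus and antimicrobial peptides. Neither splicing of Xbp1 nor translation of Atf4 is read by a probe set level, so the values below are messenger RNA levels alone.

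Both responses are known to act through short promoter elements, and matches to these were found in 5 of the 10 promoter windows. The sequences are shown for 4 of these 5, those whose match lies before the start. An ER stress element (ERSE) is read as CCAAT and CCACG with 9 bases between them, ERSE-II as ATTGG and CCACG with 1 base between them, the unfolded protein response element (UPRE) as TGACGTGG, and the amino acid response element (CARE) as TGATGNAA. All were searched on both strands in the RefSeq window of 250 bases before to 50 bases after each annotated start (GRCm38.p6), which 10 of the 10 genes had. ERSE and ERSE-II share the part CCACG, and ATTGG is CCAAT on the other strand. ERSE was found for Hspa5 and Creld2, ERSE-II for Herpud1, and CARE for Asns, Herpud1 and, at bases 15 to 22 after the start, Trib3. UPRE was found in 0 of the 10 windows. Among all 32851 windows of this length, 0.119% held ERSE, 0.0365% ERSE-II, 0.676% UPRE and 3.97% CARE. The last 150 bases before the start are printed 5′ to 3′ with the matches in capitals.
Hspa5 (chr2:34771940-34772089, plus strand): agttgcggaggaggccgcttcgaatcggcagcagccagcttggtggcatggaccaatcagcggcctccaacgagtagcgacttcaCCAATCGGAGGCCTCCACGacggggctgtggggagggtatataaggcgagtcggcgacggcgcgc
Creld2 (chr15:88819496-88819645, plus strand): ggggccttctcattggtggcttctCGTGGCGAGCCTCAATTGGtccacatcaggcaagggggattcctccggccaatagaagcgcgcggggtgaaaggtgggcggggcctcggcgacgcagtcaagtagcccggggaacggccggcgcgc
Herpud1 (chr8:94386279-94386428, plus strand): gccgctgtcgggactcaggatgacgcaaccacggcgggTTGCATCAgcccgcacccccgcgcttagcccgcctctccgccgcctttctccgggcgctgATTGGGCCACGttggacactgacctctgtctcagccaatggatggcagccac
Asns (chr6:7693210-7693359, minus strand): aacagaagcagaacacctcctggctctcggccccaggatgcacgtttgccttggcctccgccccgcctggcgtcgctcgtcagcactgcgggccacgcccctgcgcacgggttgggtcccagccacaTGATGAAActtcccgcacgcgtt
The ERSE of Hspa5 lay at -65 to -47 on the gene's strand and that of Creld2 at -126 to -108 on the opposite strand. In Herpud1 the ERSE-II lay at -52 to -42 and the CARE at -112 to -105, and in Asns the CARE lay at -23 to -16. These matches describe the letters only, and inexact copies of an element were not counted, so a window without a match may still hold one.

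**Figure D1:**
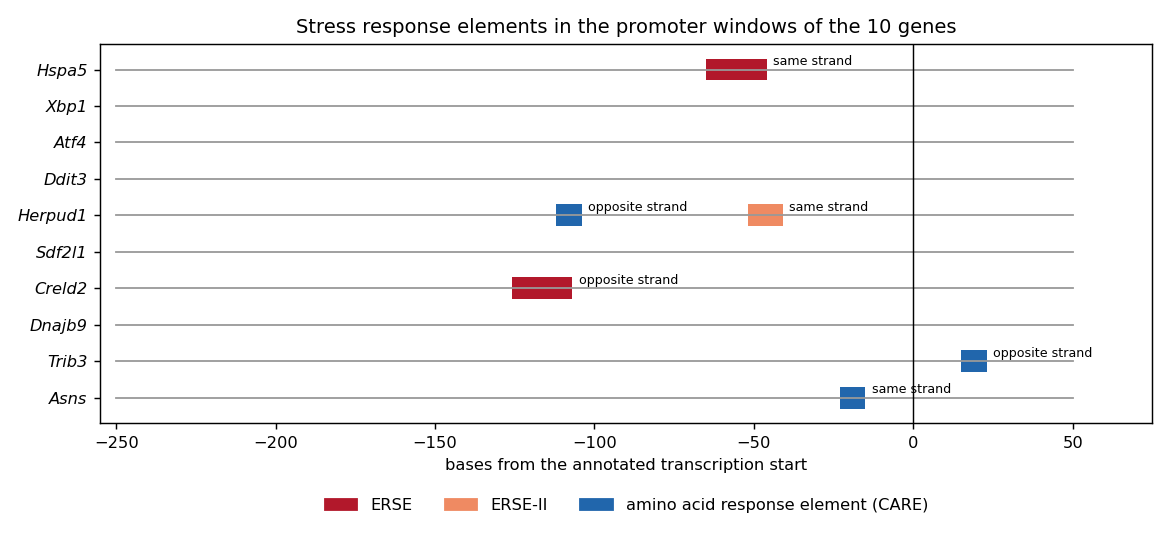
Matches to stress response elements in the promoter windows of the 10 genes, by distance in bases from the annotated transcription start (vertical line), with the strand relative to the gene. ERSE-type matches lie before the starts of Hspa5, Creld2 and Herpud1, CARE matches in Herpud1, Trib3 and Asns, and Xbp1, Atf4, Ddit3, Sdf2l1 and Dnajb9 have no match in this window.

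The 4 arrays were alike in scale. Their medians over probe sets with 1 symbol lay between 2.99 and 3.01 log2 units, and Pearson's r between arrays, across all probe sets, lay between 0.984 and 0.988. Apoe itself had log2 values of 3.13 and 2.83 on the KO arrays with and without prebiotics, against 4.09 and 3.90 on the WT arrays titled with and without them, so its order follows the genotype labels. Markers of the labelled tissue were present: 10 of 10 general epithelial, 10 of 10 colonocyte, 12 of 12 goblet cell and 12 of 12 smooth muscle genes reached the array median on at least 1 array. A gene entered a comparison if it reached that median on at least 1 of its arrays. By this filter 9 of the 10 stress genes were measured in each comparison, and Trib3 was not.

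Each stress gene differed by less than 1 log2 unit between the 4 pools. Between the highest and the lowest array, the log2 range was smallest for Asns, at 0.11, and largest for Herpud1, at 0.66. Prebiotics and genotype gave no member a 1.5-fold difference. Of all genes, 3.78% reached that limit between the KO arrays and 3.18% between the WT arrays. Limma called 0 of 9 in either tested comparison, against 0% of all genes for genotype and 1.25% for prebiotics. Beside all genes, the genotype differences were not all small. Their median, 0.17, was above the 75th percentile of all genes, 0.11, and Herpud1, at 0.34, above the 95th, 0.28. The lowest member, Atf4 at -0.21, lay above the 5th percentile, -0.25. Both KO arrays lay above both WT arrays for 4 of 9 (16.2% of all genes), and both prebiotic arrays above the others for 3 of 9 (25.5% of all genes), or 1 with the WT arrays exchanged.

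**Figure D2:**
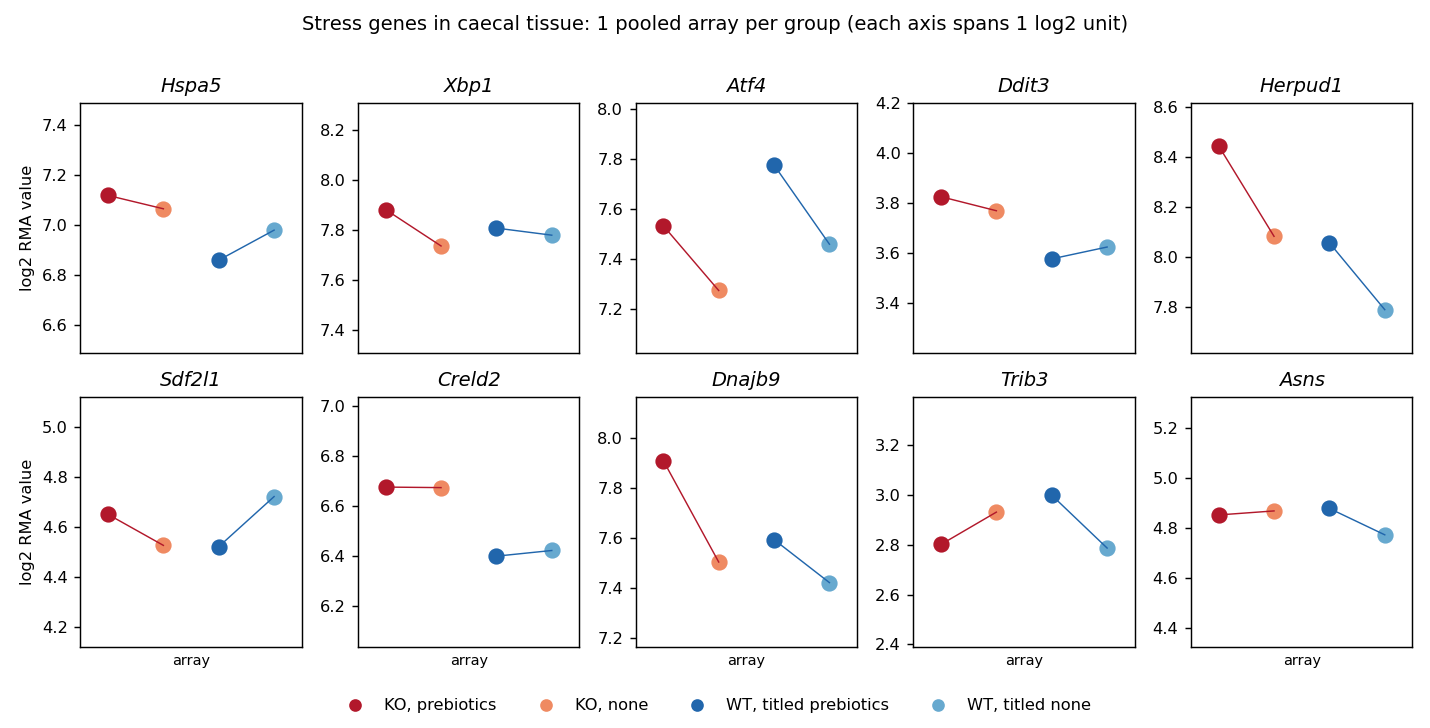
Log2 RMA values of the 10 genes on each of the 4 arrays, 1 pooled sample per point and axes of 1 log2 unit, with lines joining the arrays of a genotype. Creld2, Hspa5, Ddit3 and Herpud1 have both KO arrays above both WT arrays, and Atf4 and Dnajb9 are higher on the prebiotic array of each genotype by title.

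The transcription factors were taken first. Xbp1 drives ER chaperone and degradation genes and is needed for secretory cells to develop. Its log2 values were 7.88 on the KO prebiotic array and 7.74 on the KO array without, against 7.81 and 7.78 on the WT arrays titled with and without prebiotics. All 4 lay within 0.15 of each other, and the genotypes overlapped. Atf4, the activator shared by ER and amino acid stress, had 7.53 and 7.27 on the KO arrays with and without prebiotics and 7.77 and 7.46 on the WT arrays in the same order. It was higher on the prebiotic array of each genotype, by log2 differences of 0.26 in KO and 0.32 in the WT pair, and its KO mean of 7.40 was below its WT mean of 7.62 with overlapping arrays. Ddit3 (CHOP), which promotes cell death under lasting ER stress, had 3.83 and 3.77 on the KO arrays, against 3.58 and 3.62 on the WT arrays. Both KO arrays lay above both WT arrays, at values below the 75th percentile of the arrays, which lay between 4.48 and 4.53.

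Among the ER chaperones and their partners, Hspa5 had log2 values of 7.12 and 7.06 on the KO arrays with and without prebiotics, against 6.86 and 6.98 on the WT arrays titled with and without. The KO arrays were the higher pair, with a gap of 0.085 between the lower KO and the higher WT value. Creld2, a stress-inducible ER protein that acts on disulfide bonds, had 6.68 and 6.67 on the KO arrays against 6.40 and 6.42 on the WT arrays. It had the widest gap between the genotypes among the 10 genes, 0.25, and within each genotype its arrays differed by 0.023 or less. Dnajb9 (ERdj4), a co-chaperone of Hspa5, had 7.91 and 7.50 on the KO arrays and 7.59 and 7.42 on the WT arrays. The prebiotic array was higher in each genotype by title, and the genotypes overlapped. Sdf2l1, an ER lumen protein that works with Hspa5 and its co-chaperones, had 4.65 and 4.53 in KO and 4.52 and 4.72 in WT, with no order by genotype or diet.

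Herpud1 is an ER membrane protein that helps pass misfolded proteins to the ubiquitin ligase of ER-associated degradation. Its log2 values were 8.44 and 8.08 on the KO arrays with and without prebiotics, against 8.06 and 7.79 on the WT arrays titled with and without. Both KO arrays were above both WT arrays, by a gap of only 0.026, and each prebiotic array was above its partner. The remaining members belong to the amino acid branch. Asns, which makes asparagine and is a textbook target of Atf4, had 4.85 and 4.87 on the KO arrays and 4.88 and 4.77 on the WT arrays. Trib3, a pseudokinase induced by Atf4 and Ddit3 that restrains Atf4, had 2.80 and 2.93 on the KO arrays and 2.998 and 2.79 on the WT arrays. Each was under the median of its array, so Trib3 was near background and its differences are not interpreted.

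In KO mice, prebiotics were compared by 1 array against 1, with no test and no replicate check. Of the 9 measured members, 8 were above 0 and 1 below, with a median log2 difference of 0.12, beside a median of 0.036 and 56.0% above 0 over all 12216 genes measured. After cyclic loess or median centring the tally was 7 above 0 and 2 below, as Creld2 turned to -0.042 and -0.0017. The largest differences were those of Dnajb9, 1.32-fold higher at a log2 difference of 0.41, Herpud1, 1.29-fold at 0.36, and Atf4, 1.20-fold at 0.26. Hspa5 at 0.053, Creld2 at 0.0021 and Ddit3 at 0.056 were almost level. At a limit of 1.5-fold 0 of 9 were counted, against 3.78% of all genes. At 1.25-fold, a limit set after the values were known, the count was 2 of 9, against 19.3% of all genes, a share near the background.

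The same comparison in WT mice took the titles as they stand, again 1 array against 1. Here 5 of 9 members were above 0 and 4 below, with a median of 0.028 beside 0.018 over all 12223 genes measured. Atf4 was 1.245-fold higher at 0.32, Herpud1 1.20-fold at 0.27 and Dnajb9 1.13-fold at 0.17, while Sdf2l1 had -0.20 and Hspa5 -0.12. No member reached 1.5-fold (0 of 9, against 3.18% of all genes) or 1.25-fold (0 of 9, against 18.4%). If the descriptions are right, the sign of every value in this pair is the opposite.

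**Figure D3:**
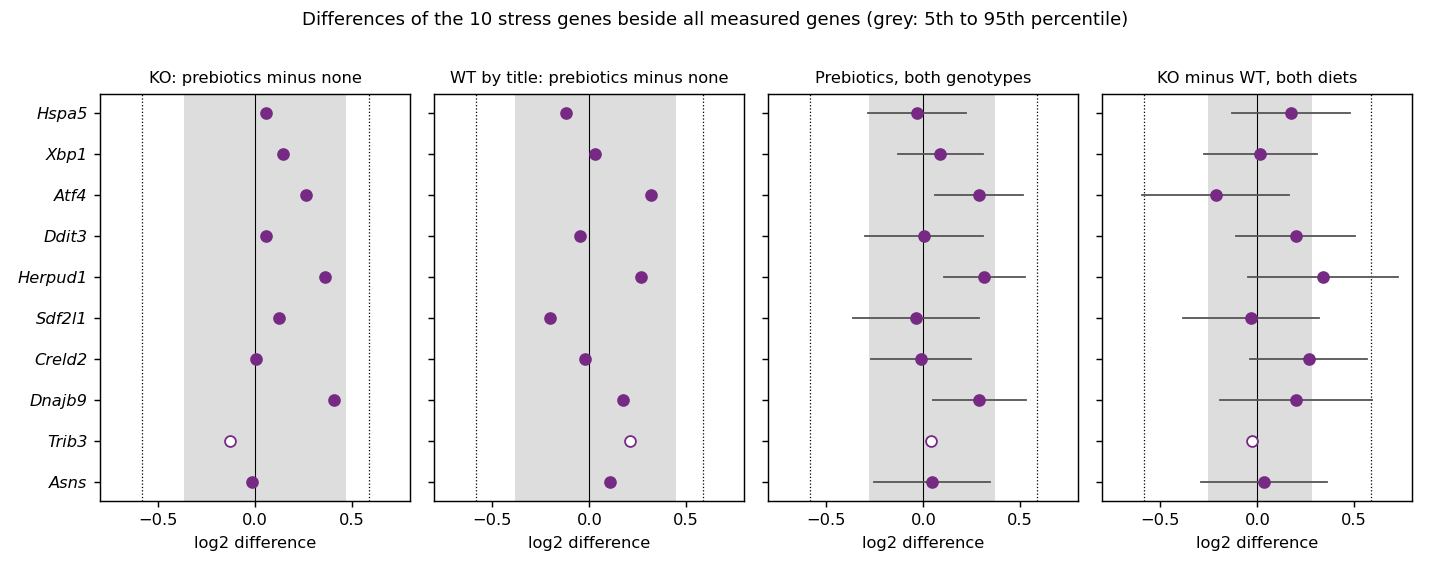
Log2 differences of the 10 genes in 4 comparisons, each the first-named group minus the second, with 95% intervals from limma where a test was possible, dotted lines at 1.5-fold and a grey band from the 5th to the 95th percentile of all measured genes. No point lies beyond a dotted line, and Herpud1 and Dnajb9 lie furthest right among the KO prebiotic differences; open circles mark Trib3, which did not pass the filter.

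Over both genotypes, with the WT arrays by title, the prebiotic arrays were higher for Herpud1 by 0.31 (SE 0.092, limma 95% interval 0.11 to 0.52, adjusted p = 0.16), for Dnajb9 by 0.29 (SE 0.11, interval 0.050 to 0.53, limma adjusted p = 0.26) and for Atf4 by 0.29 (SE 0.10, interval 0.061 to 0.51, limma adjusted p = 0.23). All were higher in 2 of 2 pairs. None passed: limma called 0 of 9 members at an adjusted p under 0.05, against 1.25% of the 13083 genes tested. At an unadjusted p under 0.05 the count was 3 of 9, against 13.8% of all genes. Both prebiotic arrays lay above both other arrays for Xbp1, Atf4 and Dnajb9, 3 of 9, against 25.5% of all genes. With the WT arrays exchanged, as the descriptions have them, Herpud1 had 0.047, Dnajb9 0.12 and Atf4 -0.029. Limma then gave 0 of 9 an unadjusted p under 0.05, against 170 of all 13083 genes. The other 6 members had limma estimates between -0.038 (Sdf2l1) and 0.087 (Xbp1), and their 95% intervals reached from -0.36 to 0.35.

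Genotype was tested with both diets pooled, KO minus WT, and without a diet term this fit does not depend on the diet labels of the WT arrays. Members averaged higher in KO in 7 of 9 cases, of which Xbp1, at 0.015, turned sign after cyclic loess, with a median log2 difference of 0.17, beside 0.010 and 52.9% above 0 over all 13083 genes. Herpud1 averaged 8.26 on the KO arrays and 7.92 on the WT arrays, a difference of 0.34 (SE 0.16, limma 95% interval -0.046 to 0.73, adjusted p = 0.999). Creld2 averaged 6.68 against 6.41, a difference of 0.26 (SE 0.13, interval -0.038 to 0.57, limma adjusted p = 0.999). Ddit3 had 0.20, Dnajb9 0.20 and Hspa5 0.17, and Atf4 went the other way at -0.21 (SE 0.16). By limma 0 of 9 members were called, as were 0% of all genes, and 0 of 9 had an unadjusted p under 0.05, against 3.29% of all genes. With diet as a block, Herpud1 (adjusted p = 0.41) and Creld2 (adjusted p = 0.71) had an unadjusted p under 0.05 in limma, but this block takes the WT diets by title. With the WT arrays exchanged in the block, limma gave 0 of 9 members an unadjusted p under 0.05. Over all 13083 genes, limma's count at that limit was 895 with the block by title and 247 with it exchanged. Both KO arrays lay above both WT arrays for Hspa5, Ddit3, Herpud1 and Creld2, 4 of 9, against 16.2% of all genes, and below them for 0 of 9, against 14% of all genes; the genes share their arrays, so this count has no test. Single arrays moved these values: without the KO prebiotic array Herpud1 had 0.16 and Dnajb9 -0.0036, and without the other KO array they had 0.52 and 0.40. Atf4 ranged from -0.37 without the WT array titled as lacking prebiotics to -0.056 without the other WT array. Hspa5, Creld2 and Herpud1 are also the 3 genes whose windows held an exact ERSE-type match, as printed above, while Ddit3 had none. That overlap was noticed after the values were seen, and a link between element and level was not tested.

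Other ER chaperones lay mostly below 0. Over all genes, 52.9% were above 0 for genotype and in the WT pair, and 56.0% in the KO pair. Of 18 measured chaperones and foldases of the ER lumen, 14 were below 0 for KO minus WT, with a median of -0.048. Limma's test was passed by 0 of them and by 0% of all genes. Among them Hyou1, a chaperone that exchanges nucleotide on Hspa5, had -0.23 and the calcium-binding protein Calu -0.18, while the oxidase Ero1a had 0.13. In the KO pair 12 of 18 were lower with prebiotics (median -0.056), with Hsp90b1 (GRP94), the ER form of Hsp90, at -0.30 and the Hspa5 co-chaperone Dnajc3 at -0.30, but Creld1, a relative of Creld2, at 0.50 and the co-chaperone Dnajb11 at 0.29. In the WT pair 16 of 18 were lower on the array titled with prebiotics (median -0.11), led by the disulfide isomerase Pdia6 at -0.33 and Hyou1 at -0.30. Over both genotypes limma called 0 of 18 for prebiotics, against 1.25% of all genes, and Hsp90b1 had -0.26 (limma adjusted p = 0.061). Over its alternatives with a test, limma's adjusted p ran from 0.046 (cyclic loess) to 1 (WT arrays exchanged, -0.038), with 0.0497 for averaged probe sets and 0.43 without the trend.

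ER-associated degradation and export had 10 of 14 measured genes above 0 in the KO pair (median 0.10), against 56.0% of all genes. In the WT pair by title it had 5 of 13 (median -0.10), against 52.9%. Edem2, which trims mannose from misfolded glycoproteins, was higher on both prebiotic arrays, by 0.61 in KO and 0.28 in the WT pair, and Syvn1 (HRD1), the ubiquitin ligase that Herpud1 works with, by 0.50 in KO. Neither passed limma over both genotypes, Edem2 having 0.45 (limma adjusted p = 0.14) and Syvn1 0.38 (limma adjusted p = 0.23). Of the 14 genes 0 were called, against 1.25% of all genes. Sec61a1, the protein channel of the ER membrane, was 0.29 higher in the WT pair. For genotype the median was 0.0053, and the values ran from -0.26 to 0.16, the highest being Sel1l, the partner of Syvn1. The lowest values of this list were -0.24 in the KO pair and -0.23 in the WT pair. Of 13 sensors and kinases, 8 were below 0 in each pair, with medians of -0.049 in the KO pair and -0.076 in the WT pair. For genotype 8 of 13 were above 0 (median 0.020), against 52.9% of all genes. Limma called 0 of 13 for prebiotics over both genotypes, against 1.25% of all genes, and 0 for genotype, against 0%. The largest values were 0.30 for Ppp1r15b, a phosphatase subunit that reverses the ISR, in the KO pair, 0.27 for Ern1 and -0.26 for the stress-induced phosphatase subunit Ppp1r15a in the WT pair, and -0.36 for Creb3l1, a transcription factor of secretory cells, for genotype.

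Targets of Atf4 and genes of amino acid supply lay mostly above 0 for prebiotics. In the KO pair 18 of 22 measured genes were above 0 (median 0.19), against 56.0% of all genes. In the WT pair 17 of 23 were higher on the array titled with prebiotics (median 0.13), against 52.9%. Over both genotypes 20 of 23 were above 0 (median 0.18, beside 0.022 for all genes), against 55.1%. Both the WT pair and the fit over both genotypes take the WT diets by title. Of the 23, limma called 1, Cth, against 1.25% of all genes tested. Cth is the enzyme that makes cysteine at the last step of transsulfuration. Its log2 values were 9.36 and 8.69 on the KO arrays with and without prebiotics and 9.20 and 8.76 on the WT arrays titled with and without. Both prebiotic arrays were above both others, and Cth rose by 0.55 (limma adjusted p = 0.019, higher in 2 of 2 pairs). That call was lost without the trend in eBayes (limma adjusted p = 0.18) and with the WT arrays exchanged (0.12, limma adjusted p = 1). Sesn2, a sensor of leucine, was 0.51 higher in the KO pair, and Ddit4, a stress-induced inhibitor of mTORC1, 0.47 higher in the WT pair. Slc7a5, an importer of large neutral amino acids, had -0.40 in the KO pair and 0.47 in the WT pair. Phgdh, the first enzyme of serine synthesis, had -0.44 in the WT pair. For genotype the median was 0.014, with the lipoprotein receptor Vldlr at 0.26 and the secreted glycoprotein Stc2 at -0.28. Limma called 0 genes of this list for genotype, and 0% of all genes.

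Aminoacyl-tRNA synthetases, which charge tRNAs and include known Atf4 targets, lay mostly below 0. Of all genes, 56.0% were above 0 in the KO pair and 52.9% in the WT pair and for genotype. Of 18 measured, 12 were below 0 in each pair (medians -0.051 in KO and -0.057 in the WT pair). Over both genotypes 0 were called by limma, against 1.25% of all genes. The threonine and isoleucine enzymes Tars and Iars had -0.49 and -0.35 in the KO pair, and the cysteine and leucine enzymes Cars and Lars 0.36 and -0.44 in the WT pair. For genotype 13 of 18 were below 0 (median -0.040), Lars at -0.30 being the lowest. Heat shock genes, mostly cytosolic, answer unfolded protein outside the ER. Here the inducible chaperones Hspa1a and Hspa1b were 2.19 and 3.01 higher in the KO pair and 1.45 and 1.48 higher in the WT pair, and 2 of 11 genes of that list, these ones, rose over both genotypes (limma adjusted p = 0.0018 and 0.0068), against 1.25% of all genes. Hspa5, the ER member of the same Hsp70 family, had 0.053 and -0.12 in the same pairs. With the WT arrays exchanged both calls were lost (0.37 and 0.77, limma adjusted p = 1 for each), and that of Hspa1b also without the trend (limma adjusted p = 0.062). For genotype 8 of the 11 heat shock genes were above 0 (median 0.25), and limma called 0, as it did of all genes. Both KO arrays lay above both WT arrays for 3 of 11, against 16.2% of all genes. At an unadjusted p under 0.05 limma had 3 of 11, against 3.29% of all genes.

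**Figure D4:**
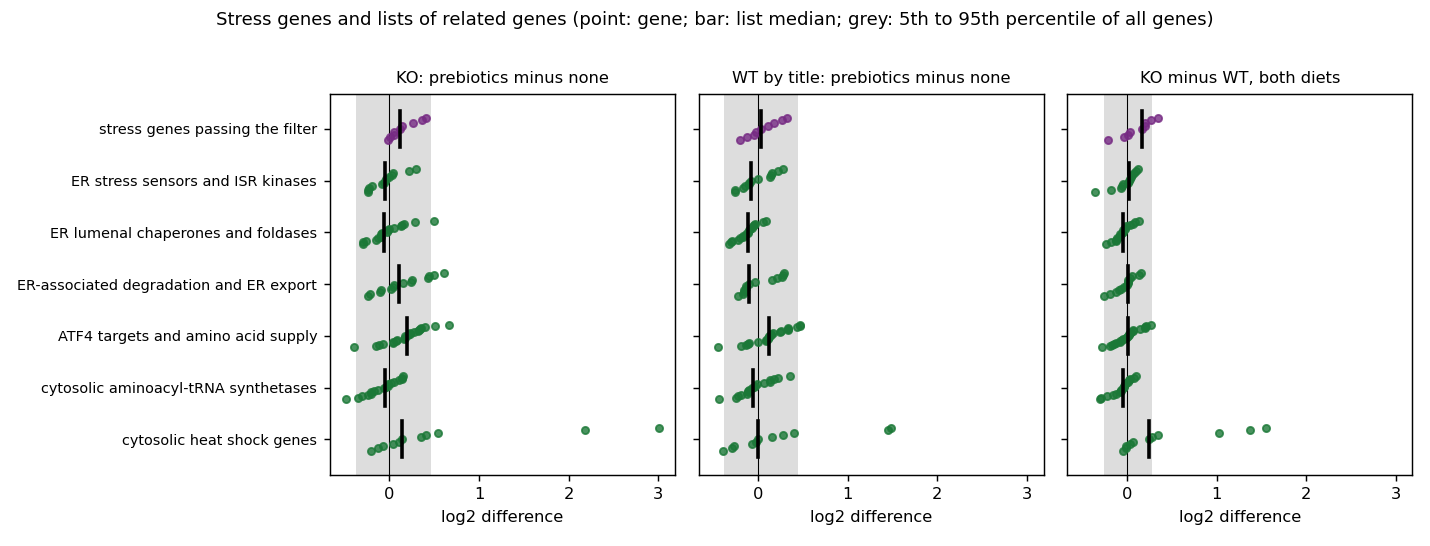
Log2 differences of the measured stress genes (purple, top row) and of 6 lists of related genes (green) for prebiotics in KO, the WT pair by title and KO minus WT; each point is 1 gene, black bars are list medians and the grey band spans the 5th to the 95th percentile of all measured genes. The points far to the right belong to Hspa1a, Hspa1b and, for genotype, another gene of the cytosolic heat shock list, whereas the ER lists and stress genes lie mostly inside the grey band. Among those outside it are Edem2, Syvn1 and Creld1, to the right for prebiotics in KO. For genotype, Herpud1 lies to its right and Creb3l1 to its left.

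Markers of other cell types moved between the same arrays, and fewer cells of a type and less RNA per cell cannot be told apart in pooled tissue. Goblet cell genes, which include ER-rich secretory products, were lower in KO in 10 of 12 cases (median -0.15), and averaged 8.27 and 8.47 log2 units on the KO arrays with and without prebiotics against 8.49 and 8.53 on the WT arrays titled with and without. Plasma cell genes, another ER-rich type, had a genotype median of 0.014 over 8 measured genes, including Xbp1 itself, and averages of 4.86, 4.81, 4.93 and 4.71 in the same array order. Smooth muscle genes were higher in KO in 12 of 12 cases (median 0.28), fibroblast and matrix genes in 11 of 12 (median 0.25) and macrophage genes in 10 of 12 (median 0.24), beside the 4 stress genes with separate genotypes. Colonocyte genes were higher with prebiotics in 10 of 10 cases in each pair (medians 0.49 in KO and 0.37 in the WT pair), as were Atf4, Dnajb9 and Herpud1. By limma 6 of 10 colonocyte genes rose over both genotypes, against 1.25% of all genes called. Paneth cell genes averaged 5.64 on the KO prebiotic array against 3.93 on the KO array without, and 3.89 and 4.04 on the WT arrays. Over both genotypes, smooth muscle genes were lower with prebiotics in 11 of 12 cases (median -0.22, 3 called by limma) and plasma cell genes higher in 7 of 8 (median 0.17, 0 called). Adipocyte genes had prebiotic medians of -0.37 over both genotypes and -0.69 in the WT pair, and Fabp4, Lpl and Cd36 fell over both by limma. All these limma calls for colonocyte, smooth muscle and adipocyte genes stand beside 1.25% of all genes. They rest on the titles, as 0 of 13083 genes were called for prebiotics with the WT arrays exchanged. B cell genes were lower with prebiotics in 5 of 5 measured cases in the KO pair (median -0.62). For genotype, adipocyte and B cell genes had medians of 0.027 and -0.26. The array median was reached on at least 1 array by 8 of 10 plasma cell, 8 of 9 Paneth cell and 7 of 9 adipocyte genes, and by all genes of the other marker lists. The part of these shifts in the stress gene values was not tested.

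Among measured genes outside these lists, Etv3, Sbf1, Cdh3, Ndufb9 and Rnf2 had the pattern over the 4 arrays most like the mean of the 10 stress genes, after each gene was centred on its own mean. Their root mean square distances from that mean were 0.0058 for Etv3 to 0.0090 for Rnf2 log2 units. The stress genes themselves lay at distances of 0.043 for Xbp1 to 0.18 for Atf4. The 5 genes were picked for lying close to that mean, which includes Trib3.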

How the data were processed

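Caecal RNA was measured on 4 Affymetrix arrays, 1 for each combination of genotype and diet, and 100 ng of pooled RNA was labelled per array. The authors deposited log2 values made with Affymetrix Expression Console and RMA, per the submitters' processing notes; versions, settings and genome build are not given in the sources used here. RMA pulls differences near background towards 0. The number of arrays limits the precision. Of 41345 probe sets, 23521 had 1 gene symbol, 1814 several and 16010 none. The probe set with the highest mean stood for a gene. All genes reaching an array's median were tested with limma 3.58.1 in R 4.3.3 (lmFit, eBayes with a trend, two-sided, Benjamini-Hochberg over 13083 genes, called at an adjusted p under 0.05), KO against WT without a diet term (2 residual degrees of freedom) and prebiotics with genotype as a term (1). The script was tested on simulated data. Single pairs of arrays have no test.

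The genes and lists were chosen with earlier results of these data known. All 10 members, the 5 genes nearest their mean pattern, and genes of pathway lists that were called or among the 2 highest and 2 lowest of a list in a comparison could be named. The lists of ER sensors, ER chaperones, degradation, Atf4 targets, tRNA synthetases and heat shock held 14, 19, 17, 28, 20 and 12 genes, of which 13, 18, 15, 25, 18 and 11 had a probe set of their own. Promoter windows came from RefSeq (GRCm38.p6). Alternatives were no filter, a filter at the 75th percentile, averaged probe sets, cyclic loess, median centring, eBayes without a trend, diet as a block, exchanged WT arrays, other fold limits and leaving out each array.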

Additional observations from a re-analysis of the deposited data

Results flagged for a closer look

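For 5 of the 9 measured stress genes the prebiotic difference had opposite signs in the KO pair and in the WT pair by title, and this difference was not tested, because each pair is 1 array against 1. Over all 11356 genes measured in both pairs the share with opposite signs was 39.2%, and after cyclic loess or median centring 4 of 9 members had them, without Creld2. Sdf2l1 had 0.12 in the KO pair and -0.20 in the WT pair, a difference of 0.32. Hspa5 had 0.053 and -0.12, a difference of 0.17, and Ddit3 had 0.056 and -0.047, a difference of 0.10. Asns had -0.016 and 0.11, a difference of -0.12. Creld2 had 0.0021 and -0.023, a difference of 0.025. Trib3, under the median on all 4 arrays and not counted here, also had opposite signs (difference -0.34), which is not interpreted. All of these signs rest on the titles of the WT arrays.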

How the results depend on the processing

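No member was called for genotype or for prebiotics over both genotypes under any setting with a test, and the lowest adjusted p among them was 0.41 for genotype (Herpud1, diet as a block) and 0.11 for prebiotics (filter at the 75th percentile). With an array left out, limma's count of members for genotype stayed at 0 in each case, and the prebiotic fit had no residual degree of freedom and so no count. At 1.25-fold, added after the data were seen, 2 members were counted in the KO pair against 0 at 1.5-fold. With the WT arrays exchanged, the number of members with both prebiotic arrays above the others was 1 against 3, and signs turned for Hspa5 (0.087), Atf4 (-0.029), Sdf2l1 (0.16), Creld2 (0.012) and Asns (-0.061). After cyclic loess Xbp1 had -0.00050 for genotype and Ddit3 -0.023 for prebiotics, and after median centring Ddit3 had -0.0055; in the KO pair Creld2 had -0.042 and -0.0017 under these scalings. Leaving out 1 array in turn, the genotype difference ranged from -0.057 to 0.088 for Xbp1, from -0.13 to 0.067 for Sdf2l1, from -0.0036 to 0.40 for Dnajb9, from -0.018 to 0.088 for Asns and, in the heat shock list, from -0.13 to 2.88 for Hspa1b, the sign turning in each. Hspa1a was called for genotype with diet as a block (1.55, limma adjusted p = 0.018) but not with the WT arrays exchanged in that block (limma adjusted p = 0.9997), its value without 1 array ranging from 0.46 to 2.65, and Hspa1b lost its prebiotic call without the trend (limma adjusted p = 0.062). Edem2 in the KO pair had 0.57 after cyclic loess, under 1.5-fold. The median of all genes moved by less than 0.1 under each scaling. Over all genes, the calls for prebiotics were 130 higher and 34 lower, against 21 and 4 without the trend, 68 and 17 without the filter and 0 with the WT arrays exchanged (170 at an unadjusted p under 0.05); for genotype they were 0, against 8 higher and 4 lower with diet as a block by title and 0 with the WT arrays exchanged in that block (247 at an unadjusted p under 0.05 in limma). The causes were not tested.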
